A study of Mus musculus with 4 samples.

Results

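The genes described here are the listed receptors, ligands, nuclear mediator and target genes of the Notch pathway in cultured mouse myoblasts. They are Notch2, Notch3, Dll1, Jag1, Jag2, Rbpj, Hes1, Hey1 and Hes6, which are 9 of the 11 names looked up and 9 of the 3760 genes in the authors' table; Notch1 and Heyl are not among the 3760 and were not analysed here. The names were chosen with their levels in these libraries known, having been selected on the CPM of all 4 libraries and their ratios, so every value below is a description and none is a test. Myoblasts labelled Twist2-positive, from skeletal muscle of adult C57BL/6 mice, were exposed for 24 h to a retrovirus that carried either green fluorescent protein (GFP) alone or Twist2-IRES-GFP, which adds the transcription factor Twist2, of the basic helix-loop-helix class. They then had 24 h in growth medium (20% fetal bovine serum) and were collected, or were kept for 5 more days in differentiation medium (2% horse serum). This gave 4 groups with 1 library each, called here GFP growth, GFP differentiated, Twist2 growth and Twist2 differentiated. No replicate was measured, so each difference is between 2 libraries, and library and condition cannot be told apart.

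In the Notch pathway a transmembrane ligand on a cell (Delta-like or Jagged) binds a Notch receptor on its neighbour. The receptor is then cut, and its intracellular part enters the nucleus, where it joins the DNA-binding protein Rbpj and switches on genes of the Hes and Hey families, which encode transcriptional repressors. In skeletal muscle this signalling is known for keeping satellite cells, the muscle stem cells, undifferentiated and for holding back myogenic differentiation.

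The libraries held between 9235281 and 12362290 reads, and the 9 genes had from 21 reads (Hey1, GFP differentiated) to 5534 reads (Hes6, Twist2 differentiated). Levels are in CPM, which is a gene's reads relative to all reads of its library, and their 95% intervals are exact Poisson intervals that cover counting error only. Twist2 stood at 0.103 CPM and 0 CPM in the GFP libraries (growth, differentiated) and at 1438 and 674 CPM in the Twist2 libraries, as their labels state; the GFP values do not show the Twist2 expression that the cells' name implies. Of 8 myoblast and satellite cell markers 7 are listed, with a summed level of 5065, 13110, 2457 and 7959 CPM in that order. Most of this sum was Des (1501, 6503, 726 and 2935 CPM) and Itga7 (1537, 4966, 752 and 3042 CPM). Pax7 (78.7 and 4.01 CPM), Vcam1 (101 and 18.0) and Cxcr4 (65.5 and 2.60) were lower in GFP differentiated than in GFP growth, and Cdh15 (598 and 806) was higher. Myod1, a defining myoblast transcription factor, was between 547 and 1184 CPM in all 4 libraries. None of the listed names of the endothelial, macrophage and Schwann cell marker lists (0 of 8, 0 of 7 and 0 of 5) is in the table, which holds only genes that reached 10 CPM in at least 2 libraries and differed at least 2-fold from GFP growth in at least 1 of the authors' 3 ratios. In bulk RNA, fewer cells of a type and less RNA per cell cannot be told apart.

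The start regions of 3 of the genes with the widest ranges are shown first, because Twist2 binds E-boxes (CANNTG), Rbpj binds sites with the core TGGGAA, and Hes proteins bind N-boxes (CACNAG). RefSeq windows of 300 bases (250 before and 50 after a start, GRCm38.p6) were found for 7 of the 9 genes, 10 windows in all; Hes1 and Hey1 were not matched. Capitals mark every match to any of the 3 motifs on either strand, and no match of a motif overlapped a match of another. The windows below are those of Notch3 (chr17:32166841-32167140, minus strand), of the outer Dll1 start (chr17:15376883-15377182, minus strand), of the inner Dll1 start (chr17:15375774-15376073, minus strand) and of the outer Hes6 start (chr1:91413989-91414288, minus strand), each read 5′ to 3′ along the gene.
Notch3: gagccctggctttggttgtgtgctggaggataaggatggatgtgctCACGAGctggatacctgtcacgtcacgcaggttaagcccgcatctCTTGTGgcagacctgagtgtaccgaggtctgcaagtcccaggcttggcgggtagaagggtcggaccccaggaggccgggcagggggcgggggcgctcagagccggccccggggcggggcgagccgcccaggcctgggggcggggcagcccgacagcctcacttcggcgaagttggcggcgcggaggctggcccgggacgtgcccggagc
Dll1 outer start: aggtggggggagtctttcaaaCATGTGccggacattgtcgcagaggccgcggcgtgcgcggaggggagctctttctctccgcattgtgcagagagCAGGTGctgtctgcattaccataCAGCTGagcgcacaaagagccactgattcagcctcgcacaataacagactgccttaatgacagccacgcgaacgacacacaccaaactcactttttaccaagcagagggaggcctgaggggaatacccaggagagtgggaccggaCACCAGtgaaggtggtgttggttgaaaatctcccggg
Dll1 inner start: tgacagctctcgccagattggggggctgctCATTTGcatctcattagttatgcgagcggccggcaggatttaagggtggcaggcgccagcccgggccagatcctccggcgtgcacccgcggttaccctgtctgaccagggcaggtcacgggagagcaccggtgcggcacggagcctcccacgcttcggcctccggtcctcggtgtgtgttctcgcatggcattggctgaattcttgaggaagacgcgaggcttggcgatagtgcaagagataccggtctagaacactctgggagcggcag
Hes6 outer start: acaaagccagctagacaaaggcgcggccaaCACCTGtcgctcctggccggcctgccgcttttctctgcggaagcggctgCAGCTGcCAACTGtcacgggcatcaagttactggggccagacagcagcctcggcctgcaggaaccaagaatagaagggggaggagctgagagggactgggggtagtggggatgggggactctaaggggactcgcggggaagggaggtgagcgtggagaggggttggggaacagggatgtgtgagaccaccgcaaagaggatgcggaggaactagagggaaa

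The Notch3 window held 2 N-boxes, 204 and 159 bases before the start, and no E-box. The outer Dll1 window held 3 E-boxes, 229, 155 and 132 bases before the start, and the outer Hes6 window held 3 as well, 220, 171 and 164 bases before it. The Rbpj core was present in 2 of the 10 windows, both of them overlapping windows of Rbpj itself, against 25.6% of 32851 windows of all genes. E-boxes were in 6 of the 10 windows (72.3% of all windows) and N-boxes in 4 (42.5%). These are letter matches in short windows, and no match says only that the letters are not there.

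Notch3, 1 of the 4 mammalian Notch receptors, had the widest range of the 9 genes. It lies on chromosome 17 (32120820 to 32166852, minus strand, GRCm38). Its level was 126 CPM in GFP growth (95% interval 119 to 133), 4.98 in GFP differentiated (3.65 to 6.64), 71.5 in Twist2 growth (66.6 to 76.6) and 313 in Twist2 differentiated (303 to 323). The differentiated Twist2 library was thus the highest and the differentiated GFP library the lowest, and each step in the order of the 4 libraries was larger than counting error. Differentiation went with a log2 ratio of -4.41 in GFP cells (interval of the read ratio -5.12 to -4.24) and of 2.11 in Twist2 cells (2.02 to 2.24). An annotated antisense gene, Gm17276, overlaps exons of Notch3, and without a stated strand setting its reads cannot be told apart from those of Notch3.

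Notch2, the other listed receptor (chromosome 3, 98013527 to 98150361), stood at 297 CPM in GFP growth, 90.1 in GFP differentiated, 298 in Twist2 growth and 207 in Twist2 differentiated. The growth medium libraries differed by less than counting error, and the differentiated GFP library was again the lowest. The log2 ratio on differentiation was -1.71 in GFP cells (-1.83 to -1.61) and -0.52 in Twist2 cells (-0.60 to -0.45); the first was -0.92 under a scaling by the reads that lie outside the table (outside-table scaling), and the second was 0.08 after centring on genes of like exon length. Compared per kilobase of annotated exon, the level of Notch2 was 1.77 times that of Notch3 in GFP growth (1.65 to 1.89), 13.6 times in GFP differentiated (10.08 to 18.7), and 3.13 times in Twist2 growth (2.90 to 3.39). In Twist2 differentiated the order was turned: Notch3 was at 38.6 and Notch2 at 19.2 CPM per kilobase, a Notch2 to Notch3 ratio of 0.497 (0.473 to 0.523). The library with most Notch3 was therefore the only library of the 4 in which it exceeded Notch2 per exon length. Exons of Gm42820, annotated on the same strand, overlap those of Notch2, and how reads shared between them were counted is not known.

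**Figure D1:**
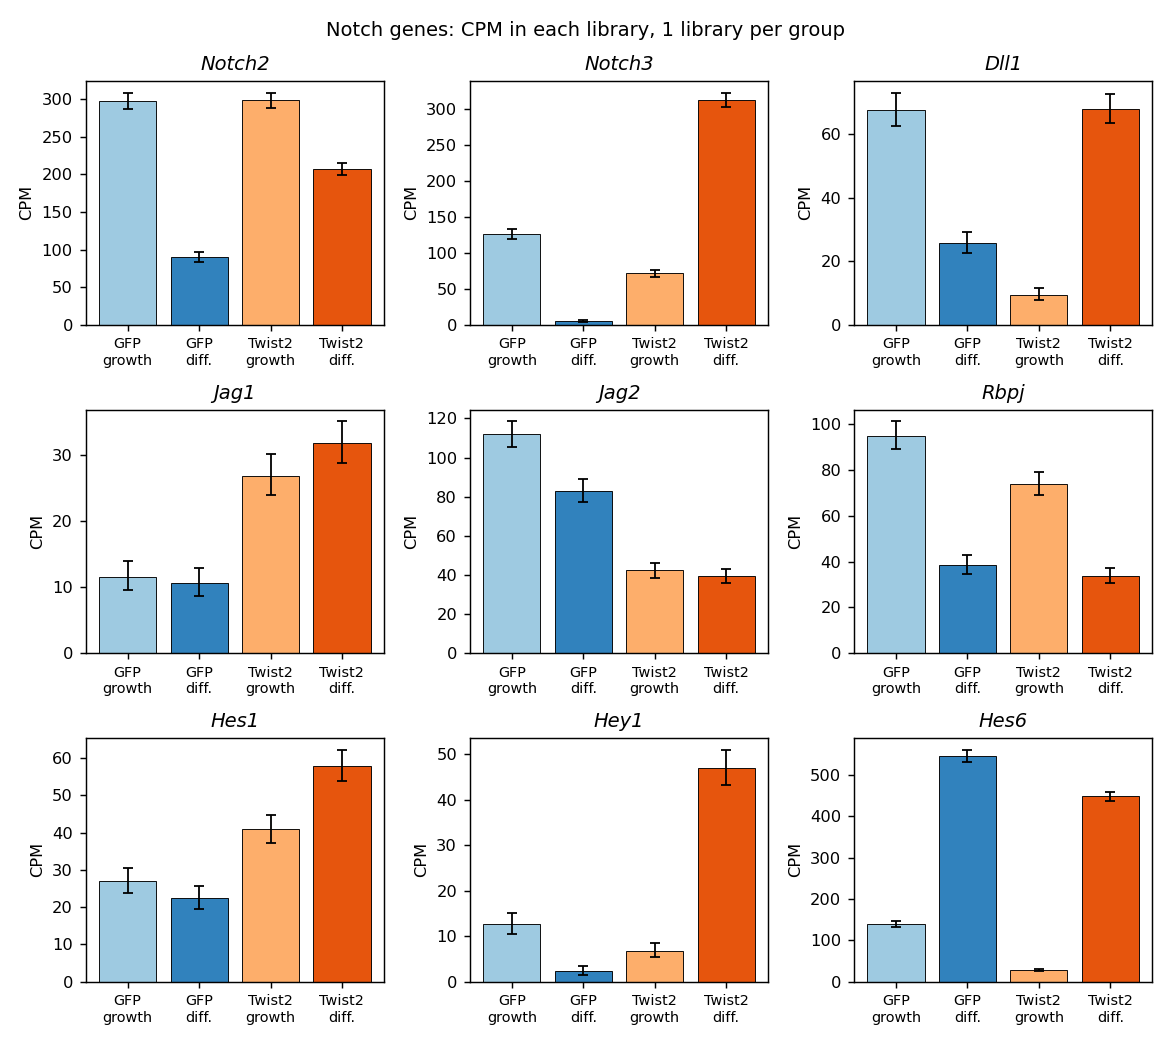
CPM (vertical axes, linear, from 0, a different scale for each gene) of the 9 Notch genes in GFP growth, GFP differentiated (diff.), Twist2 growth and Twist2 differentiated libraries; bars are single libraries and error bars are exact Poisson 95% intervals of the reads. Notch3 reaches 313 CPM in the differentiated Twist2 library against 4.98 in the differentiated GFP library, and Hey1 reaches 47.1 against 2.27.

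Among the ligands, Dll1 differed most between the libraries. Dll1, a Delta-like ligand made by myogenic cells (chromosome 17, 15367354 to 15376872, minus strand), was at 67.6 CPM in GFP growth (62.6 to 73.0), 25.8 in GFP differentiated (22.6 to 29.3), 9.49 in Twist2 growth (7.76 to 11.5) and 67.9 in Twist2 differentiated (63.4 to 72.6). Twist2 growth was the lowest library, and Twist2 differentiated and GFP growth, the highest, differed by less than counting error (log2 interval -0.14 to 0.15). The differentiation ratio was -1.36 in GFP cells (-1.61 to -1.18) and 2.72 in Twist2 cells (2.54 to 3.15). The GFP value was -0.58 under outside-table scaling and -0.74 with centring by exon length. Exons of the noncoding gene A930024N18Rik, on the opposite strand, overlap those of Dll1.

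Jag1 and Jag2, the Jagged ligands, differed by virus more than by medium, and in opposite directions. Jag1 (chromosome 2, 137081456 to 137116644) was at 11.6 CPM in GFP growth, 10.6 in GFP differentiated, 26.9 in Twist2 growth and 31.9 in Twist2 differentiated. Both Twist2 libraries were above both GFP libraries, and the GFP libraries differed by less than counting error. Jag2 (chromosome 12, 112907819 to 112929776) was at 112 CPM in GFP growth, 83.1 in GFP differentiated, 42.3 in Twist2 growth and 39.5 in Twist2 differentiated. Here both Twist2 libraries were below both GFP libraries, and the Twist2 libraries differed by less than counting error. The mix of ligands therefore differed between the libraries. Per kilobase of exon Jag2 was 8.06 times Jag1 in GFP growth (6.64 to 9.87) and 6.55 times in GFP differentiated (5.30 to 8.16), but 1.31 times in Twist2 growth (1.13 to 1.52) and 1.04 times in Twist2 differentiated (0.906 to 1.19). Dll1 and Jag2 differed by less than counting error per kilobase in GFP growth (ratio 0.999, 0.906 to 1.10), whereas Dll1 was 0.370 times Jag2 in Twist2 growth (0.297 to 0.459) and 2.84 times Jag2 in Twist2 differentiated (2.54 to 3.18).

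Rbpj, the DNA-binding partner of all Notch receptors (chromosome 5, 53466152 to 53657362), was lower after differentiation with either virus. It was at 94.9 CPM in GFP growth, 38.5 in GFP differentiated, 73.8 in Twist2 growth and 33.8 in Twist2 differentiated. Both differentiated libraries were below both growth libraries, and they differed from each other by less than counting error. Log2 ratios on differentiation were -1.28 in GFP cells (-1.48 to -1.12) and -1.10 in Twist2 cells (-1.30 to -0.95). Under outside-table scaling these were -0.49 and -0.85, with centring by exon length -0.94 and -0.50, and with size factors (median of ratios) the GFP value was -0.93. The ratio of Twist2 to GFP cells after differentiation was -0.18, but -0.77 under outside-table scaling and 0.52 with centring by exon length. In growth medium that ratio was -0.36, -0.41 and -0.01 in the same order of settings. How large the difference by medium was beside that by virus thus depended on the scaling. Mouse Rbpj has annotated processed pseudogenes (Rbpj-ps1 and Rbpj-ps3), between which the authors' counting could have divided its reads.

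Of the target genes, Hey1 had its libraries in the same order as Notch3. Hey1, a repressor induced by Notch (chromosome 3, 8663359 to 8667256), was at 12.6 CPM in GFP growth (10.5 to 15.1), 2.27 in GFP differentiated (1.41 to 3.48), 6.87 in Twist2 growth (5.41 to 8.59) and 47.1 in Twist2 differentiated (43.3 to 51.1). Twist2 differentiated was the highest and GFP differentiated the lowest, with every step beyond counting error. The log2 ratio on differentiation was -2.06 in GFP cells (-3.22 to -1.80, from 123 and 21 reads) and 2.61 in Twist2 cells (2.43 to 3.14).

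Hes1, the best known Notch target gene (chromosome 16, 30064384 to 30067796), varied less. It was at 27.0 CPM in GFP growth, 22.5 in GFP differentiated, 40.9 in Twist2 growth and 57.9 in Twist2 differentiated. Both Twist2 libraries were above both GFP libraries. The GFP libraries differed by less than counting error (log2 interval -0.53 to 0.01), and their ratio of -0.25 became 0.09 with size factors and 0.52 under outside-table scaling. The Twist2 ratio was 0.49 (0.33 to 0.67) and was -0.00083 with centring by exon length. Per kilobase Hes1 was 3.43 times Hey1 in GFP growth (2.76 to 4.28), 15.9 times in GFP differentiated (10.1 to 26.2), 9.55 times in Twist2 growth (7.48 to 12.3) and 1.97 times in Twist2 differentiated (1.77 to 2.20). Hey1 thus came closest to Hes1 in the library where Notch3 was highest.

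Hes6 belongs to the same family but is known to oppose Hes1 and to promote myogenic differentiation, and its profile was another. Hes6 (chromosome 1, 91411483 to 91414038) was at 140 CPM in GFP growth, 546 in GFP differentiated, 28.0 in Twist2 growth and 448 in Twist2 differentiated. Both differentiated libraries were far above both growth libraries, and Twist2 growth was the lowest. The log2 ratios on differentiation were 1.96 in GFP cells (1.88 to 2.05) and 3.95 in Twist2 cells (3.83 to 4.17). Per kilobase Hes6 exceeded Hes1 by 5.84 times in GFP growth, 27.3 times in GFP differentiated and 8.71 times in Twist2 differentiated, and in Twist2 growth it was 0.771 times Hes1 (0.665 to 0.893). Myog, a transcription factor of differentiating myoblasts, was ordered likewise, with 76.4, 1075, 3.52 and 378 CPM in the same order of libraries.

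The comparisons between libraries can be read side by side, with log2 ratios of CPM + 1 and a gene counted as higher or lower at 2-fold where the higher library had at least 10 CPM. In GFP cells, the reference response to differentiation, 5 of the 9 genes were lower (Notch2, Notch3, Dll1, Rbpj and Hey1) and Hes6 was higher, with a median of -1.28 against -0.40 over all 3760 genes. Of all listed genes with 10 CPM, 40.9% were lower and 32.6% higher. This split depended on the scaling: 44.4% of all called genes were higher with the deposited CPM, 57.8% with size factors, 58.4% with centring by exon length and 69.5% under outside-table scaling. The last left 2 of the 5, Notch3 (-3.70) and Hey1 (-1.43), at least 2-fold lower.

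In Twist2 cells, which address differentiation with the added factor present, 4 of the 9 genes were higher (Notch3, Dll1, Hey1 and Hes6) and Rbpj was lower, with a median of 0.49 against -0.22 over all listed genes. The shares of all listed genes were 26.5% higher and 24.5% lower. The higher share of called genes was 51.9%, or 66.5% under outside-table scaling. Notch3, Dll1, Hey1 and Hes6 stayed at least 2-fold higher under all scalings and pseudocounts tried and with centring by exon length.

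Notch3, Dll1 and Hey1 were at least 2-fold lower on differentiation in GFP cells and at least 2-fold higher in Twist2 cells. This held for 3 of the 9 genes and for 42 of all 3760, or 1.12%. It is the pattern for which these genes were put forward, so nothing is read from the share. For Dll1 the GFP ratio was under 2-fold with outside-table scaling (-0.58) and with centring by exon length (-0.74). Twist2 differentiated was the highest library for 5 of the 9 (Notch3, Dll1, Jag1, Hes1 and Hey1, beside 15.1% of all listed genes). GFP differentiated was the lowest for 5 (Notch2, Notch3, Jag1, Hes1 and Hey1, beside 39.1%). The next library differed by less than counting error for Dll1 in the first count and for Jag1 and Hes1 in the second. With size factors the GFP ratios of Jag1 (0.20) and Hes1 (0.09) were positive, so GFP differentiated was then not their lowest library. The difference of the responses (Twist2 minus GFP, log2) was 6.52 for Notch3, 4.67 for Hey1 and 4.07 for Dll1, at ranks 2, 17 and 35 of 3760 genes. For the other 6 it was 2.00 (Hes6), 1.19 (Notch2), 0.74 (Hes1), 0.35 (Jag1), 0.33 (Jag2) and 0.17 (Rbpj). It was thus at least 1 for 5 of the 9 genes, against 25.5% of all listed genes. The difference had no replicate check.

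**Figure D2:**
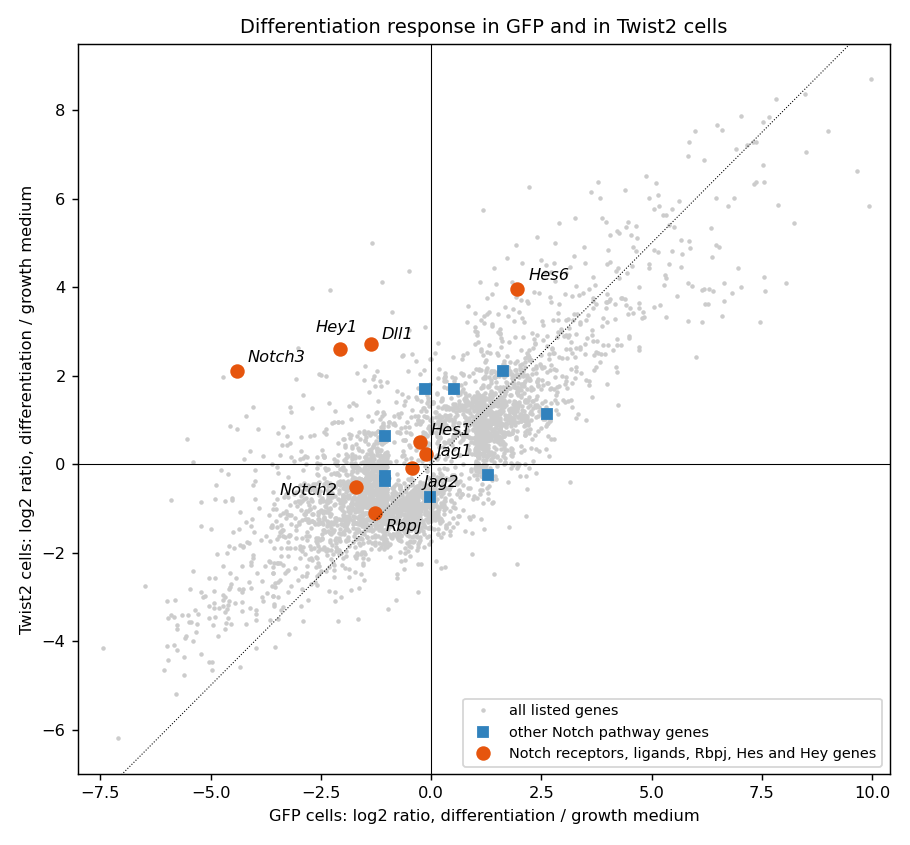
Each point is a gene; the horizontal axis is the log2 ratio of differentiated to growth medium in GFP cells and the vertical axis the same ratio in Twist2 cells, both from CPM + 1, and the dotted line marks equal ratios. Notch3 (-4.41 and 2.11), Hey1 (-2.06 and 2.61) and Dll1 (-1.36 and 2.72) lie in the upper left, past 2-fold in both directions as 42 of the 3760 listed genes (grey) are, while Rbpj and Jag2 lie close to the line; blue squares are the 9 other pathway genes.

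In growth medium the Twist2 and GFP libraries were compared before differentiation. Dll1 (-2.71, interval -3.14 to -2.53), Hes6 (-2.28, -2.50 to -2.14) and Jag2 (-1.38, -1.56 to -1.24) were at least 2-fold lower with Twist2. Jag1 (1.15, 0.90 to 1.54) was at least 2-fold higher. Notch3 (-0.81) and Hey1 (-0.79) were lower by less than 2-fold, and Hes1 (0.58) was higher by less than 2-fold. The median was -0.79 against -0.10 over all listed genes, of which 10.6% were lower and 5.21% higher. The higher share of called genes was 33.0%, but 53.0% with size factors and 43.4% with centring by exon length. Jag1 was no longer 2-fold higher with a pseudocount of 5 CPM (0.94).

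In differentiation medium most of the Notch genes were higher with Twist2. Of the 9 genes, 6 were at least 2-fold higher in Twist2 cells than in GFP cells: Notch3 (5.71, interval 5.55 to 6.42), Hey1 (3.88, 3.75 to 5.07), Jag1 (1.50), Dll1 (1.36), Hes1 (1.32) and Notch2 (1.19). Jag2 was lower (-1.05, -1.24 to -0.91), and Rbpj (-0.18) and Hes6 (-0.28) differed by less than 2-fold. The median was 1.32 against -0.06 over all listed genes, of which 25.4% were higher and 25.2% lower (50.6% in either direction, against 7 of the 9). Without a threshold 6 of the 9 genes were higher in Twist2 cells, against 48.9% of all listed genes. Under outside-table scaling the higher share of all called genes went from 50.2% to 24.7%, and 2 of the 9 genes, Notch3 (5.20) and Hey1 (3.44), were still at least 2-fold higher; Jag1 (0.95), Dll1 (0.78), Hes1 (0.75) and Notch2 (0.60) kept their sign. Centring by exon length left Hes1 at 0.92 and Jag2 at -0.84, and Jag2 was also under 2-fold with a pseudocount of 5 CPM (-0.99).

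The differentiated Twist2 library can also be set against undifferentiated GFP cells, a comparison that the authors' deposited table holds. There the authors' log2 ratios were 1.82 for Hey1, 1.67 for Hes6, 1.38 for Jag1, 1.30 for Notch3 and 1.07 for Hes1. They were -1.48 for Jag2, -1.46 for Rbpj, -0.52 for Notch2 and 0.005 for Dll1. The 2-fold higher genes were 5 of 9, against 25.8% of all listed genes, and the 2-fold lower genes 2 of 9, against 32.1%. Hes1 passed the table's 2-fold selection through this ratio alone and is the member closest to it. All comparisons with GFP growth share that library.

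**Figure D3:**
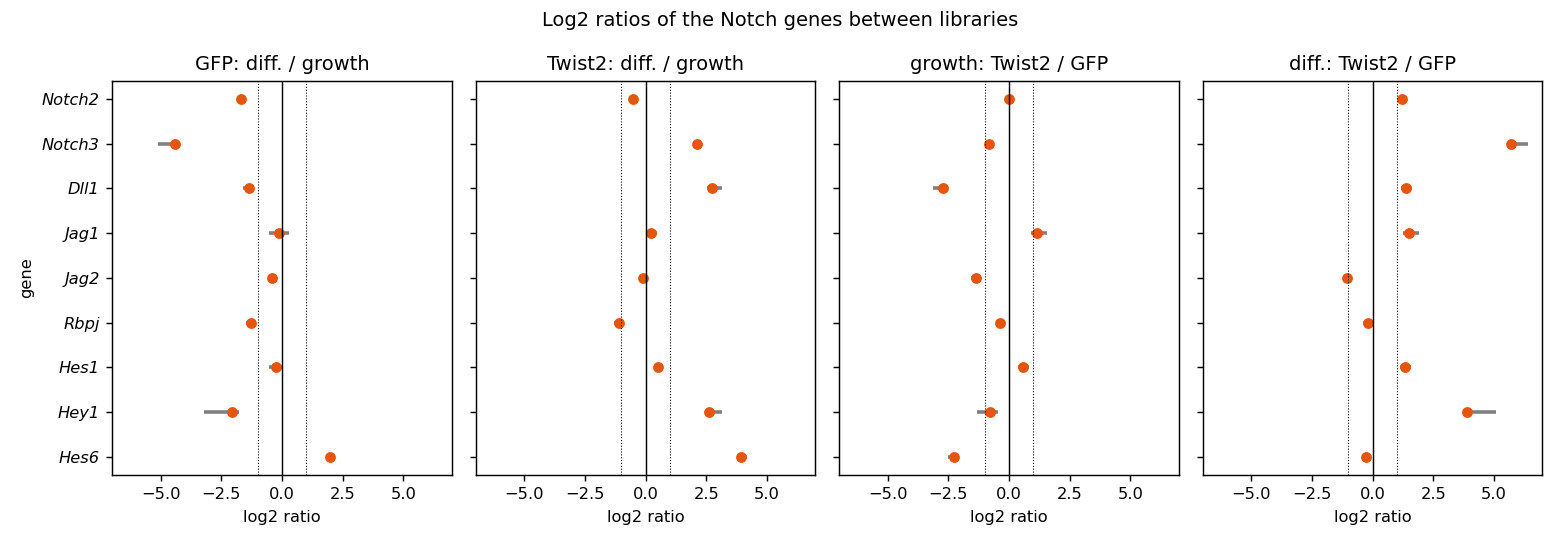
Log2 ratios of CPM + 1 (points, horizontal axes) of the 9 genes in the 4 comparisons of libraries, with the exact binomial 95% interval of the read ratio (grey lines); dotted lines mark 2-fold. Notch3 and Hey1 are on the left in GFP differentiation and on the right in Twist2 differentiation and in the comparison of the differentiated libraries (5.71 and 3.88).

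Markers of muscle and of other cell types moved between the same libraries. The summed level of all 7 differentiated muscle markers (Myog, Myh3, Myh8, Acta1, Ckm, Tnnt3 and Tmem8c) was 272 CPM in GFP growth, 46480 in GFP differentiated, 28.1 in Twist2 growth and 6697 in Twist2 differentiated, so Notch3 and Hey1 were lowest in the library with most muscle RNA. Their part in the Notch values was not tested. Pax7, the satellite cell factor, was at 78.7, 4.01, 60.5 and 34.6 CPM in the same order. Notch3 and Hey1 were higher in Twist2 differentiated than in either growth library, whereas Pax7 was lower there.

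Notch3 is also a known gene of pericytes and vascular smooth muscle. Of 9 pericyte and smooth muscle markers 4 are listed (Rgs5, Abcc9, Acta2 and Mcam), with a summed level between 217 CPM (Twist2 growth) and 8014 CPM (GFP differentiated). Most of this sum was Acta2, at 361, 7948, 113 and 5050 CPM in the order used above. Pdgfrb, Cspg4, Kcnj8, Myh11 and Cnn1 are not among the listed genes. Rgs5 was at 51.7, 0.108, 85.1 and 4.69 CPM, Abcc9 at 0.308, 51.0, 0.0903 and 20.0, and Mcam at 48.1, 15.7, 19.0 and 7.60 in the order used above. None of these was highest where Notch3 was highest, and their part in the Notch3 values was not tested. Of 7 fibroblast and fibro-adipogenic progenitor markers 3 are listed, with a summed level of 820, 561, 3086 and 8818 CPM, nearly all of it Col3a1 (807, 559, 3043 and 8750 CPM); Dcn was at 1.95, 1.19, 10.6 and 64.6 CPM and Ly6a at 10.98, 0, 32.9 and 3.32 CPM. Col3a1 and Dcn were thus highest in the same library as Notch3 and Hey1, and their part in the Notch values was not tested.

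The rest of the pathway was taken from a list of 74 names, of which 18 are in the table, the 9 genes above and 9 more. Among these 9 more, 3 were higher and 3 lower on differentiation in GFP cells, near the 32.6% and 40.9% of all listed genes. In Twist2 cells 4 were higher and 0 lower, beside 26.5% and 24.5%. With Twist2 against GFP, 0 were higher and 2 lower in growth medium (5.21% and 10.6% of all listed genes). In differentiation medium 1 was higher (Dtx4) and 4 were lower (Neurl1a, Psen2, Kdm5a and Fbxw7), beside 25.4% and 25.2%. Most that differed here were lower, unlike the 6 Notch genes that were higher. Their roles are mixed, with Dtx4 and Fbxw7 grouped as negative regulators, so a lower level is not read as less Notch signalling. Psen2, a catalytic subunit of the gamma-secretase that cuts Notch, was at 15.9 CPM in GFP growth, 104 in GFP differentiated, 13.6 in Twist2 growth and 30.9 in Twist2 differentiated. Neurl1a, a ubiquitin ligase for Notch ligands, was at 111, 345, 25.7 and 114 CPM in that order, lower with Twist2 in both media (-2.07 and -1.59). Both were highest in the differentiated GFP library, where Notch3 and Hey1 were lowest.

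Among other regulators and corepressors, Dtx4, a Deltex ubiquitin ligase, was highest in Twist2 differentiated, with 62.5, 56.4, 47.6 and 157 CPM in the same order. Fbxw7, which targets the Notch intracellular part for degradation, was at 18.2, 45.7, 20.2 and 16.8 CPM, and stood out in GFP differentiated. Bcl6, a repressor, was at 65.7, 94.0, 26.3 and 87.0 CPM and lowest in Twist2 growth. The Groucho corepressor genes Tle1 (-1.05) and Tle3 (-1.04) and the receptor-glycosylating enzyme gene Poglut1 (-1.05) were just past 2-fold lower on differentiation in GFP cells, and in Twist2 cells they had ratios of -0.27, 0.63 and -0.39. Kdm5a, a histone demethylase that works with Rbpj, was at 117, 116, 67.2 and 40.0 CPM, lower in both Twist2 libraries. Over these 9 genes the median ratio was -0.02 for differentiation in GFP cells and 0.63 in Twist2 cells, and for Twist2 against GFP it was -0.39 before and -0.11 after differentiation. With the Notch genes above included, which were chosen on these values, the last was 0.68.

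Genes of satellite cell upkeep and known Notch outputs outside the Hes and Hey families were taken from a second list of 23 names, 15 of them in the table. In differentiation medium 10 of the 15 were at least 2-fold higher in Twist2 cells and 0 lower (median 2.48), beside 25.4% and 25.2% of all listed genes. On differentiation 3 were higher and 9 lower in GFP cells (32.6% and 40.9% of all listed genes). In Twist2 cells 7 were higher and 6 lower (26.5% and 24.5%). With Twist2 in growth medium 3 were higher and 1 lower (5.21% and 10.6%). Twist2 differentiated against GFP growth had 6 higher and 7 lower (25.8% and 32.1%). The list was drawn up with results of these libraries known. The collagen chain genes Col6a1 and Col5a3 encode matrix proteins of the satellite cell niche. The GFP differentiated library held only 12 reads of Col6a1, 25 of Col5a3 and 34 of Id3. In differentiation medium Col6a1 (7.56) and Col5a3 (6.21) had the highest ratios of Twist2 to GFP cells, followed by Id3 (4.24). The other listed collagen V genes were at 2.82 (Col5a1) and 0.75 (Col5a2). Col5a3 was at 20.6 CPM in GFP growth, 2.71 in GFP differentiated, 65.3 in Twist2 growth and 274 in Twist2 differentiated. Col6a1 was at 4.0, 1.30, 23.9 and 433 CPM in that order, and Col5a1 at 482, 284, 914 and 2019. These 3 were lowest in the differentiated GFP library and highest in the differentiated Twist2 library, as Notch3 and Hey1 were, but unlike these they were also higher with Twist2 in growth medium (1.62, 2.31 and 0.92). Col5a2 went otherwise, with 403 CPM in GFP growth, 875 in GFP differentiated, 618 in Twist2 growth and 1472 in Twist2 differentiated, lowest in GFP growth and higher on differentiation in GFP cells as well (1.12).

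The inhibitors of differentiation Id1, Id2 and Id3, which bind E proteins and keep them from myogenic factors, had another course. Id3 was at 421 CPM in GFP growth, 3.68 in GFP differentiated, 592 in Twist2 growth and 87.2 in Twist2 differentiated. All 3 Id genes were lower on differentiation in both cell types, with ratios of -5.36, -5.03 and -6.49 in GFP cells and -3.31, -2.57 and -2.75 in Twist2 cells. Ccnd1, which encodes cyclin D1, was likewise lower in both (-4.50 and -1.52), as were Vcam1 (-2.42 and -1.22) and Myc (-1.99 and -2.12). Sdc3, which encodes a satellite cell proteoglycan, was at 256, 26.0, 163 and 132 CPM and was lower by over 2-fold in GFP cells alone (-3.25 against -0.30). Spry1, an inhibitor of growth factor signalling in quiescent satellite cells, was higher in both (3.06 and 4.32). Cdh15 and Dag1, adhesion genes of muscle cells, differed by less than 2-fold between the differentiated libraries (-0.01 and -0.56).

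**Figure D4:**
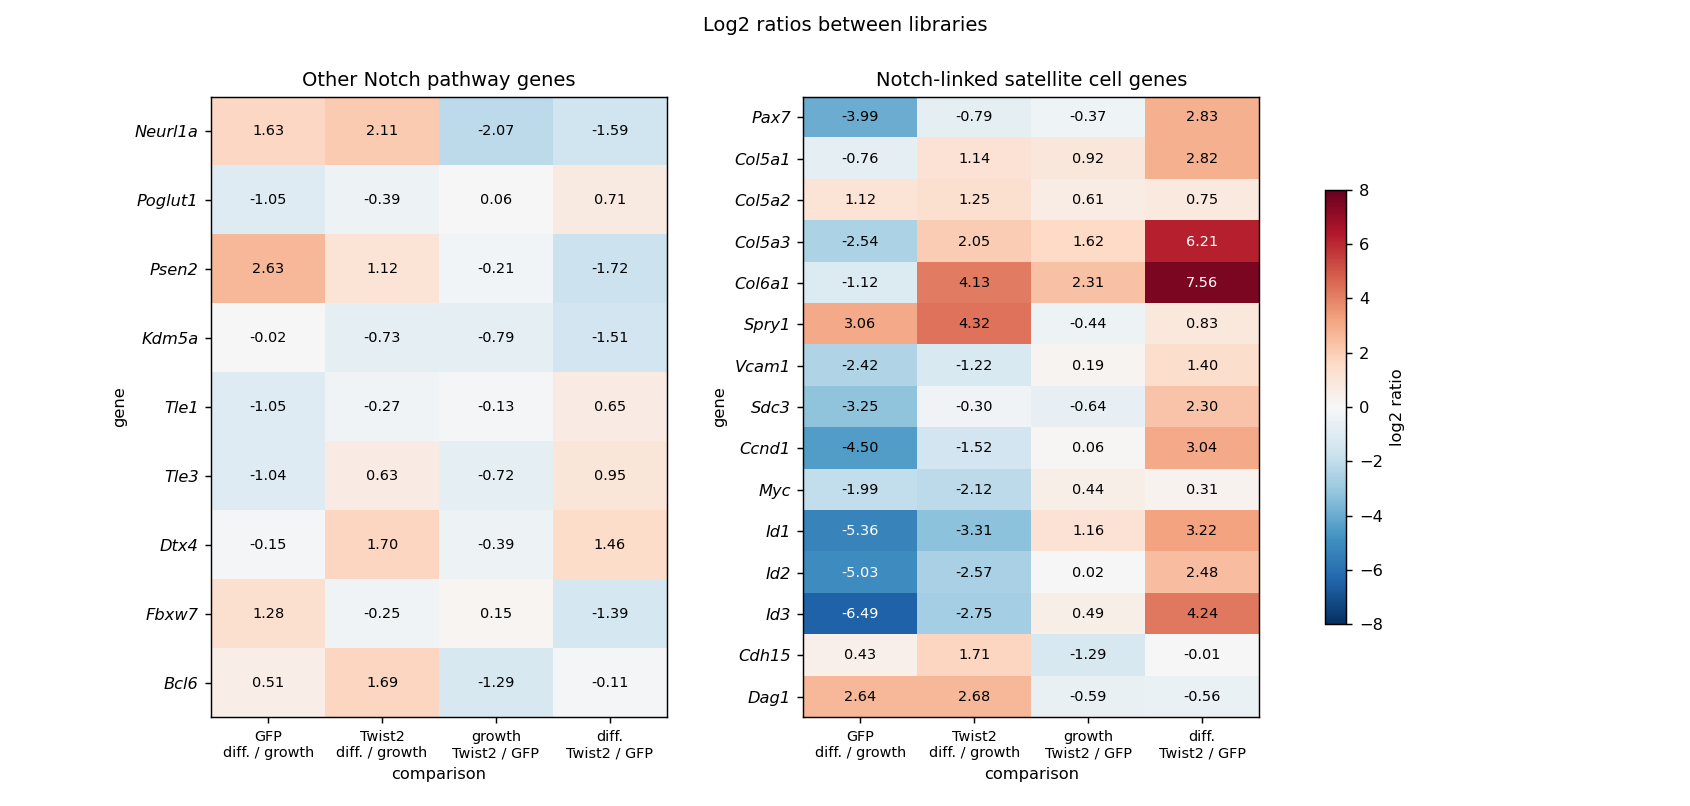
Log2 ratios of CPM + 1 in the 4 comparisons of libraries for 9 further Notch pathway genes (left) and 15 satellite cell and Notch output genes (right); red is higher and blue lower in the library named first, and each cell prints its value. In the last column, the comparison of the differentiated libraries, Col6a1 (7.56) and Col5a3 (6.21) are the highest.

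The genes most like each Notch gene were found as those with the smallest Euclidean distance between mean-centred log2(CPM + 1) profiles over the 4 libraries. For Notch3 these were Gfra1 (distance 0.66), Piezo2 (0.93) and Grik3 (0.98). Gfra1, which encodes a receptor for glial cell line-derived neurotrophic factor, was at 174 CPM in GFP growth, 9.75 in GFP differentiated, 135 in Twist2 growth and 332 in Twist2 differentiated. For Hey1 they were Col4a2 (0.49), Spp1 (0.59) and Timp3 (0.68), and for Dll1 Lix1 (0.44), Sema6a (0.53) and Cd82 (0.61). Timp3, an inhibitor of metalloproteases, was at 35.9, 3.57, 15.3 and 99.3 CPM in the order above. For Hes6 they were Cyfip2 (0.26), Flrt1 (0.41) and E2f2 (0.53). The steadier genes had closer neighbours: Hes1 with Oat (0.03), Rbpj with Hsp90aa1 (0.06), Notch2 with Hsd3b7 (0.07), Jag1 with Rdh10 (0.14) and Jag2 with 9330159F19Rik (0.19). Among the Notch genes themselves Hes1 and Jag1 were the nearest pair (0.42), and Hey1 and Notch3 stood 1.93 apart. Distances over 4 libraries describe these libraries only.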

How the data were processed

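Total RNA of 4 myoblast samples, 1 library per group, was sequenced after standard Illumina library preparation, per the labels. TopHat2 2.0.0, DESeq2 1.6.3 and the build GRCm38 (mm10) are named in the submitters' processing notes without roles; the counter was not given in the sources used here, nor were annotation and strand setting. Deposited by the authors were CPM values for 3760 genes and 3 columns of log2 ratios against GFP growth, which equal log2 of the ratio of CPM + 1. The status column, which the authors deposited as an other value, is 1 for each gene. All 3760 reach 10 CPM in 2 or more libraries and 2-fold in 1 or more of those ratios, as found from the values, so a name outside the table may still be expressed.

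Divided by the step of their library, 100% of CPM values were whole within 0.001 reads, which gave reads and library totals; no count test was run, since no group was replicated. The pseudocount of 1 CPM understates ratios of low genes. Intervals (exact Poisson for levels, exact conditional binomial for ratios, 95%) exclude the pseudocount and cover counting error only: without molecular identifiers, reads are not independent molecules. Exon lengths are unions of GENCODE M21 exons, so levels per kilobase depend on that annotation. Likeness neighbours are the 3 nearest genes. Named genes are the members, the listed genes of both lists, these neighbours, the cell type markers and Twist2, Myod1 and Myog. Names of overlapping genes and pseudogenes were added after the values were seen. The members and lists were chosen with earlier results of these data known. The calculation was tested on simulated counts. Alternatives were pseudocounts of 0.1 and 5 CPM, median-of-ratios size factors, scaling by reads outside the table, no minimum CPM, a 3-fold threshold and, chosen after seeing the data, centring by 5 groups of exon length. Python 3.11.15, numpy 2.4.6, pandas 2.3.3 and scipy 1.17.1 were used.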

Additional observations from a re-analysis of the deposited data

Results flagged for a closer look

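With the deposited CPM, Notch3, Hey1, Dll1, Hes1 and Jag1 had a differentiation response of opposite sign in GFP and in Twist2 cells. Each response is a difference between 2 single libraries. The difference between the responses was not tested, for lack of replicates. On the log2 scale, Twist2 minus GFP, it was 6.52 for Notch3, 4.67 for Hey1 and 4.07 for Dll1, and in these 3 genes both responses were beyond counting error. It was 0.74 for Hes1 and 0.35 for Jag1, whose GFP libraries differed by less than counting error. With size factors the GFP responses of Hes1 and Jag1 were 0.09 and 0.20, of the same sign as in Twist2 cells. Under outside-table scaling they were 0.52 and 0.62, so the opposite sign of these genes depended on the scaling.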

How the results depend on the processing

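Of 36 log2 ratios (9 genes in 4 comparisons), 36 kept their sign with either pseudocount, 34 with size factors, 31 under outside-table scaling and 30 with centring by exon length, and none that was counted as 2-fold different changed sign. Notch3, Hey1 and Hes6 kept their side of the 2-fold threshold in all 4 comparisons under these settings. Size factors shifted the median ratio of all genes by 0.34, 0.04, 0.23 and -0.06, and outside-table scaling by 0.78, 0.25, -0.05 and -0.57 (GFP differentiation, Twist2 differentiation, growth medium, differentiation medium). Outside-table scaling shifts ratios by construction, as the listed genes held unlike shares of the reads. These shares were 39.3% in GFP growth, 65.1% in GFP differentiated, 36.9% in Twist2 growth and 47.2% in Twist2 differentiated. A 3-fold threshold counts fewer genes by construction, and the causes of the other differences were not tested. No paired analysis was possible because each group has 1 library.

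Counts that moved by over 1.5 times were as follows. Outside-table scaling gave 2 members and 2 of the 18 pathway genes lower in GFP differentiation, 0 and 0 lower in Twist2 differentiation, and 2 and 2 higher in differentiation medium; over all genes 654 were lower in GFP differentiation, and 508 were higher and 1550 lower in differentiation medium. Size factors gave 4 pathway genes and 968 of all genes lower in GFP differentiation and 241 of all genes lower in growth medium. A pseudocount of 5 CPM gave 0 members and 0 pathway genes higher in growth medium and 0 members lower in differentiation medium. Centring by exon length gave 3 members, 3 pathway genes and 951 of all genes lower in GFP differentiation, 0 members and 0 pathway genes lower in Twist2 differentiation, and 0 members and 3 pathway genes lower in differentiation medium. The 3-fold threshold gave 3 members and 3 pathway genes lower in GFP differentiation, 0 and 0 lower in Twist2 differentiation, 0 and 0 higher and 3 pathway genes lower in growth medium, and 2 and 2 higher and 0 and 2 lower in differentiation medium. Over all genes it gave 638 higher and 783 lower, 562 and 365, 67 and 151, and 489 and 385 in the 4 comparisons. Among the members, depth limits Hey1 most, with 21 reads in GFP differentiated.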
